A study of Mus musculus with 2 samples.

Results

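The nuclear genes of the mitochondrial respiratory chain and of ATP synthase were examined in open chromatin maps of the newborn mouse heart. They were chosen by symbol from the protein-coding genes of GENCODE vM21 on chromosomes 1 to 19 and X. The choice took every symbol that begins with Nduf, Uqcr or Atp5 or with Cox and a number, together with Sdha, Sdhb, Sdhc, Sdhd, Cyc1 and Cycs. It gave 105 gene records of 21755, with 104 different symbols, because Atp5o has a pair of records. The rule itself uses symbols and no measured value. The samples were hearts of mice of strain B6NCrl at postnatal day 0, with no treatment or other genotype named in the labels, and they formed 1 group of 2 libraries, biological replicates 1 and 2. The labels give both replicates the same donor, separate biosamples and no recorded sex, so an SD over the 2 libraries may be no more than technical spread.

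DNase-seq marks open chromatin by sequencing where DNase I cuts the DNA of nuclei, since the enzyme reaches DNA free of nucleosomes most easily. The authors called peaks of 150 bp, each with a signal value whose unit is not stated, and broader stretches of frequent cutting, called hotspots, with a −log10 q-value. The peak value reached at most 145 in replicate 1 and 148 in replicate 2, and its median over all peaks was 36 and 35. It ranks peaks within a library, and since read totals are not given, the depth is unknown. With 1 group there was no comparison between conditions and no test, so each result below is a description set beside the same measure over other genes. In bulk tissue, fewer cells with an open site and less opening per cell cannot be told apart.

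The respiratory chain of the inner mitochondrial membrane passes electrons from NADH (complex I) and succinate (complex II) through complex III and cytochrome c to oxygen at complex IV, and ATP synthase uses the resulting proton gradient to make ATP. Adult cardiac muscle depends on this pathway for most of its energy, and the heart shifts towards oxidation of fatty acids after birth. Most of the subunits are encoded in the nucleus, and the transcription factors NRF1, GABP, YY1 and the oestrogen-related receptors (ERR), with their coactivators of the PGC-1 family, are known to regulate them. Several subunits of complex IV exist as a ubiquitous isoform and an isoform of striated muscle, lung or testis.

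Nearly all of these genes had an open promoter. A promoter peak, with its centre within 500 bp of an annotated transcription start site (TSS) of the gene, was present in both libraries for 99 of the 105 genes (94.3%), against 64.2% of all protein-coding genes. Promoters rich in CpG are open in most tissues, and 84 of the 105 genes (80%) had a CpG ratio, observed over expected within 500 bp of the 5′ end, of at least 0.6, against 46.3% of all protein-coding genes. Among all protein-coding genes with such a ratio, 93.4% had such a peak in both, so the count of 99 was near the share that this promoter class has in the same tissue. A promoter hotspot was found in both libraries for 100 of the 105 genes, against 65% of all protein-coding genes, and in each library 100 genes had one at the ceiling −log10 q of 100. These were 99.0% of their promoter hotspots in each library. Over the promoter hotspots of all protein-coding genes the share was 84.5% and 82.2% in replicates 1 and 2, and over those of CpG-rich ones 91.4% and 89.5%. Over those of ribosomal protein genes it was 97.8% (cytosolic) and 98.7% (mitochondrial) in each library.

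The highest promoter peaks were higher than those of most genes. Their median value was 99 in replicate 1 and 98 in replicate 2, against 88 and 84 over all protein-coding genes with a promoter peak and 95 and 91 over those with a CpG ratio of at least 0.6. A value of at least 100 in both libraries was reached by 37 of the 105 genes (35.2%), against 16.8% of all protein-coding genes and 30.8% of the CpG-rich ones. The peaks sat close to the gene start. In 86.1% (replicate 1) and 88.0% (replicate 2) of the genes with a promoter peak its centre lay within 100 bp of the nearest TSS, against 70.8% and 71.4% over all protein-coding genes. The median offset was -30 bases and -26.5 bases, that is upstream of the start, against -38 and -39 bases.

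The highest peaks of both libraries overlapped by at least 1 bp at 98 of the 99 genes, the median difference between them was 6 and the largest 21. Replicate 1 was the higher at 61 genes, replicate 2 at 34, and 4 were equal. Across the 99 genes, Spearman's correlation between the libraries was 0.867, lower than the 0.952 across all protein-coding genes with a promoter peak in both, given as a description of genes that share their libraries. Differences of 16 or more belonged to 5 genes. They were Ndufs6, a complex I subunit of the arm that reaches into the matrix, with 83 and 104 in replicates 1 and 2, Cox8a with 128 and 107, Atp5j with 132 and 112, Sdha with 105 and 86, and Atp5g1 with 134 and 118. Atp5g3, with 107 and 92, came next together with Atp5j2 and Ndufa8, which differed as much.

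**Figure D1:**
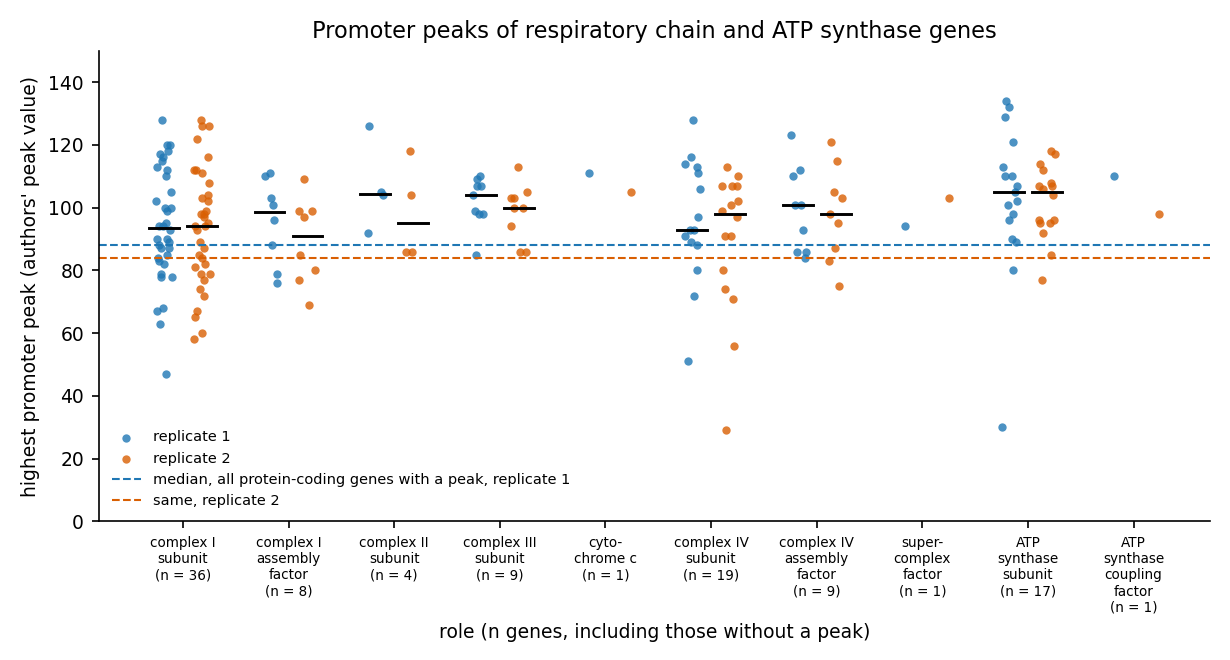
Highest promoter peak value (y axis, the authors' peak value) of each respiratory chain and ATP synthase gene with a promoter peak, by role (x axis), 1 point per gene and library, with black bars at the median of roles with more than 1 gene. Dashed lines mark the medians over all protein-coding genes with a peak, 88 in replicate 1 and 84 in replicate 2, and the medians of every role with more than 1 gene lie above them.

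Complex I, the entry point for electrons from NADH, had 36 genes of subunits, of which 35 had a promoter peak in both libraries, with median values of 93.5 and 94. It held 4 of the 8 highest and 5 of the 8 lowest genes of the chain. Ndufs8, an iron-sulphur subunit, had 120 and 128 in replicates 1 and 2. Ndufv1, which binds NADH and the flavin, had 120 and 126. The accessory subunits Ndufb5 and Ndufa2 had 128 and 116, and 118 and 126. At the lower end stood Ndufa1 with 63 and 60, Ndufb11 with 68 and 58, Ndufs4 with 67 and 65, Ndufc2 with 79 and 67, and Ndufa10 with 78 and 72. The 8 assembly factors of complex I all had a promoter peak in both libraries, with medians of 98.5 and 91. Ndufaf1 was the lowest of them with 76 and 69, and Ndufaf3 the highest by mean with 103 and 109.

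Of the lowest genes, Ndufa1 and Ndufb11 lie on the X chromosome, as does the complex IV subunit gene Cox7b, which had 88 and 80. The X chromosome as a whole was low in these libraries. Its protein-coding genes with a promoter peak had medians of 69 and 65, against 88 and 85 on the autosomes, and 0.844% of its 948 genes reached 100 in both libraries, against 17.6% of autosomal genes. No sex is recorded, and its part in these values was not tested.

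Complex II, succinate dehydrogenase, which also belongs to the citric acid cycle, had promoter peaks for all 4 of its genes in both libraries. Sdhb, the iron-sulphur subunit, had 126 and 118. Sdhd and Sdhc, which anchor the enzyme in the membrane, had 104 and 104, and 92 and 86. Sdha, the flavoprotein subunit, had 105 and 86. The 2 libraries ranked Sdhb first alike and differed on the others.

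Complex III, the cytochrome bc1 complex, had peaks for all 9 genes in both libraries, with medians of 104 and 100 and a narrow range. The lowest was Uqcrc1, a core subunit, with 85 and 86, and the highest by mean was Uqcrq, a small subunit, with 107 and 113. Uqcrc2, the other core subunit, had 110 and 100 and one of the widest promoter hotspots of the chain, 1823 bp in replicate 1 and 1930 bp in replicate 2. The median promoter hotspot width of the 105 genes was 799 and 869 bp, against 669 and 694 bp over all protein-coding genes. Over the CpG-rich ones it was 781 and 811 bp. Cycs, which encodes the somatic cytochrome c, had 111 and 105.

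ATP synthase had 17 gene records of subunits, 16 with a promoter peak in both libraries, and the highest medians of the roles with more than 1 gene, 105 and 105. Atp5g1 had the highest mean of all 105 genes, with 134 and 118. It is 1 of 3 genes that encode the same mature c subunit of the membrane rotor and differ in the import sequence. The other two had lower values, Atp5g2 with 90 and 96 and Atp5g3 with 107 and 92. Atp5d, a subunit of the central stalk, had 129 and 117, and Atp5j, of the peripheral stalk, had 132 and 112. Of the head of the enzyme, Atp5b, which encodes the catalytic beta subunit, had 121 and 114. Atp5a1, which encodes the alpha subunit, was the lowest of those with a peak in both libraries, with 80 and 77. The sequence of the highest peak of Atp5g1 in replicate 2 is shown because this promoter led the list. It lies on mm10 at chr11:96075856-96076005, upstream of the 5′ end of the gene, and is written along the gene (minus strand), with the CCAAT box letters in capitals.
Atp5g1: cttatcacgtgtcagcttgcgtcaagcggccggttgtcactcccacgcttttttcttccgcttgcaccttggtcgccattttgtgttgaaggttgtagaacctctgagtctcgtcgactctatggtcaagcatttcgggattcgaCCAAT
Of the motifs searched, this peak also held E-box letters (CANNTG), which are left in lower case here and below, since 97.6% of all protein-coding genes hold them within 500 bases of the 5′ end.

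Complex IV, cytochrome c oxidase, held the 3 genes with no promoter peak in either library, all isoforms known from other tissues. A promoter peak was present in both libraries at 15 of its 19 subunit genes. Those found in every tissue had high values. Cox5a had 113 and 107, Cox5b 114 and 110, Cox7c 111 and 99, and Cox4i1 97 and 102. Cox6c, with 72 and 74, was the lowest ubiquitous subunit gene. All 9 assembly factor genes of complex IV had a peak in both libraries, with medians of 101 and 98. Cox14 had 123 and 115 and Cox18, which inserts part of a subunit into the membrane, had 112 and 121. The lowest was Cox16 with 84 and 75.

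The isoforms of striated muscle were open in the newborn heart, but with lower promoter peaks than their ubiquitous partners. Cox6a2, the heart and muscle form of subunit VIa, had 93 and 97 in replicates 1 and 2, and Cox6a1 had 106 and 107. Cox7a1, the muscle form of subunit VIIa, had 93 and 101, and Cox7a2 had 116 and 113. Cox8b, the muscle form of subunit VIII in the mouse, had 80 and 71, and Cox8a had 128 and 107. Every muscle isoform stood below its partner in each library, with no overlap of the 2 libraries' values in any of the 3 pairs. The muscle minus ubiquitous difference was -11.5 ± 2.12 for Cox6a2 and Cox6a1, -17.5 ± 7.78 for Cox7a1 and Cox7a2, and -42 ± 8.49 for Cox8b and Cox8a (SD, n = 2 libraries), and its mean over the 3 pairs was -23.7 ± 6.13. Within the ranking of all peaks of a library, the muscle peaks were still high, at the 94.9 and 96.6 percentile for Cox6a2, 94.9 and 97.4 for Cox7a1, and 91.1 and 88.5 for Cox8b. All 6 genes had a promoter hotspot at the ceiling in both libraries.

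The pairs differed in promoter sequence. The CpG ratio was 0.261 at Cox6a2, 0.277 at Cox7a1 and 0.245 at Cox8b, against 0.962 at Cox6a1, 0.804 at Cox7a2 and 0.693 at Cox8a. Over all protein-coding genes with a promoter peak, the median value was 59 and 57 in replicates 1 and 2 at ratios under 0.3. At ratios of at least 0.6 it was 95 and 91, so the lower side of each pair was also that of its promoter class. The muscle isoforms stood above the medians of their own class, and the part of promoter class in the pair differences was not tested. Promoters poor in CpG were mostly closed in this tissue. Of all protein-coding genes with a ratio under 0.3, 21.2% had a promoter peak in both libraries and 8.23% one with a value of at least 70 in both, as all 3 muscle isoforms had. The limit of 70 was set after these values were seen, just under the lowest of them, 71 for Cox8b. At a limit of 100 in both libraries, none of the 8 genes of the chain with such a ratio passed, against 2.24% of all protein-coding genes with one. The bases from 120 before the annotated 5′ end to 30 into the gene are shown to set the pairs side by side. They are written along each gene, on mm10, with matches to the searched motifs in capitals. The muscle isoforms lie at chr7:128206358-128206507 (minus strand), chr7:30184024-30184173 (plus strand) and chr7:140900417-140900566 (minus strand).
Cox6a2: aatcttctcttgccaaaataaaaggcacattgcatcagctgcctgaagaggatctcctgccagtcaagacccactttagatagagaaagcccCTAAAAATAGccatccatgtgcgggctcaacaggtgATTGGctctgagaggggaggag
Cox7a1: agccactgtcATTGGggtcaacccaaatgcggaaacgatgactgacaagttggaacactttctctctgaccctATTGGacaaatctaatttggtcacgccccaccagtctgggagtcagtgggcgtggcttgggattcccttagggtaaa
Cox8b: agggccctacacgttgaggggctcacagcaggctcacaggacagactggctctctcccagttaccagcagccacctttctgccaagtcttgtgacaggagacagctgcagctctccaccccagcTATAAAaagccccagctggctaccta
The ubiquitous partners lie at chr5:115348952-115349101, chr9:79759849-79759998 and chr19:7217587-7217736, all on the minus strand.
Cox6a1: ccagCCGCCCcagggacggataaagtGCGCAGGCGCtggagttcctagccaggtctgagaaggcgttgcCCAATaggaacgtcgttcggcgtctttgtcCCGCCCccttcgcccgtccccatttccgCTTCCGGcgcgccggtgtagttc
Cox7a2: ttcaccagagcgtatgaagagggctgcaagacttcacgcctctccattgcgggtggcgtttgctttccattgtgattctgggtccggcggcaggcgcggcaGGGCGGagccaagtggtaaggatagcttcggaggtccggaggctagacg
Cox8a: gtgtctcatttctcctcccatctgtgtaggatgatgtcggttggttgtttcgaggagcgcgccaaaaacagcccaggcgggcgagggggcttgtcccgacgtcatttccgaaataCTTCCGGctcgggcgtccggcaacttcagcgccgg
In these stretches the muscle isoforms held 1 CpG (Cox6a2), 4 (Cox7a1) and 1 (Cox8b), and the ubiquitous ones 17, 12 and 15. Cox6a2 had the letters of a MEF2 site, a factor of muscle genes, and of a CCAAT box, Cox7a1 had a pair of CCAAT boxes and Cox8b a TATA box just inside the annotated gene. Cox6a1 had letters of the relaxed NRF1 site, of SP/KLF, CCAAT and ETS sites, Cox7a2 of an SP/KLF site and Cox8a of an ETS site. A match is a description of the letters, and no factor was measured here.

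Peaks beyond the promoter also differed between the pairs. Each muscle isoform had a distal peak, more than 1 kb from every TSS, between 1 and 4 kb upstream in both libraries. At Cox6a2 its centre was at -1963 bases from the 5′ end in replicate 1 with a value of 72 and at -1983 bases in replicate 2 with 54. At Cox7a1 it was at -2614 bases in both, with 55 and 49, and at Cox8b at -2924 and -2944 bases, with 49 and 63. The Cox8b peak lay nearer to a TSS of BC024386, at 2644 and 2624 bases, and cannot be assigned to either gene. None of the 3 ubiquitous partners had a distal peak in this range in either library. Weaker distal peaks lay nearer on the downstream side, for Cox8b at 1036 bases with 26 and 25 and at 1236 bases with 19 in replicate 1 only, and for Cox6a2 at 1097 bases with 19 in replicate 2 only. Cox6a1 had one at 1191 bases downstream, with 69 and 68. The range was chosen after these peaks were seen, and in it 15 of the 105 genes (14.3%) had a peak in both libraries, against 12.6% of all protein-coding genes, a share near that of all genes. Among protein-coding genes with a CpG ratio under 0.3, 9.08% had one. The replicate 1 peaks of the muscle isoforms are shown because they are the nearest distal peaks upstream, at chr7:128208276-128208425 (Cox6a2, minus strand), chr7:30181456-30181605 (Cox7a1, plus strand) and chr7:140903296-140903445 (Cox8b, minus strand).
Cox6a2 upstream: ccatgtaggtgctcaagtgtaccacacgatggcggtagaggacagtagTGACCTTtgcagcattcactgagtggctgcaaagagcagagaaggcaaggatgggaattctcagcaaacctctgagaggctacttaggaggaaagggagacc
Cox7a1 upstream: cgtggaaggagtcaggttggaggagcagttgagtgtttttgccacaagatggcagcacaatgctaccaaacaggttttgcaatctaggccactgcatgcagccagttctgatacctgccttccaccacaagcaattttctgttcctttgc
Cox8b upstream: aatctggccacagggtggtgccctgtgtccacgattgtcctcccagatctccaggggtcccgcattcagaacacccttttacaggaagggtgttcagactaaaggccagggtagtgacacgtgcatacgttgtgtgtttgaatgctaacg
The Cox6a2 peak held the letters of an ERR site (in capitals, on the other strand), and the other two held none of the searched motifs beyond an E-box.

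**Figure D2:**
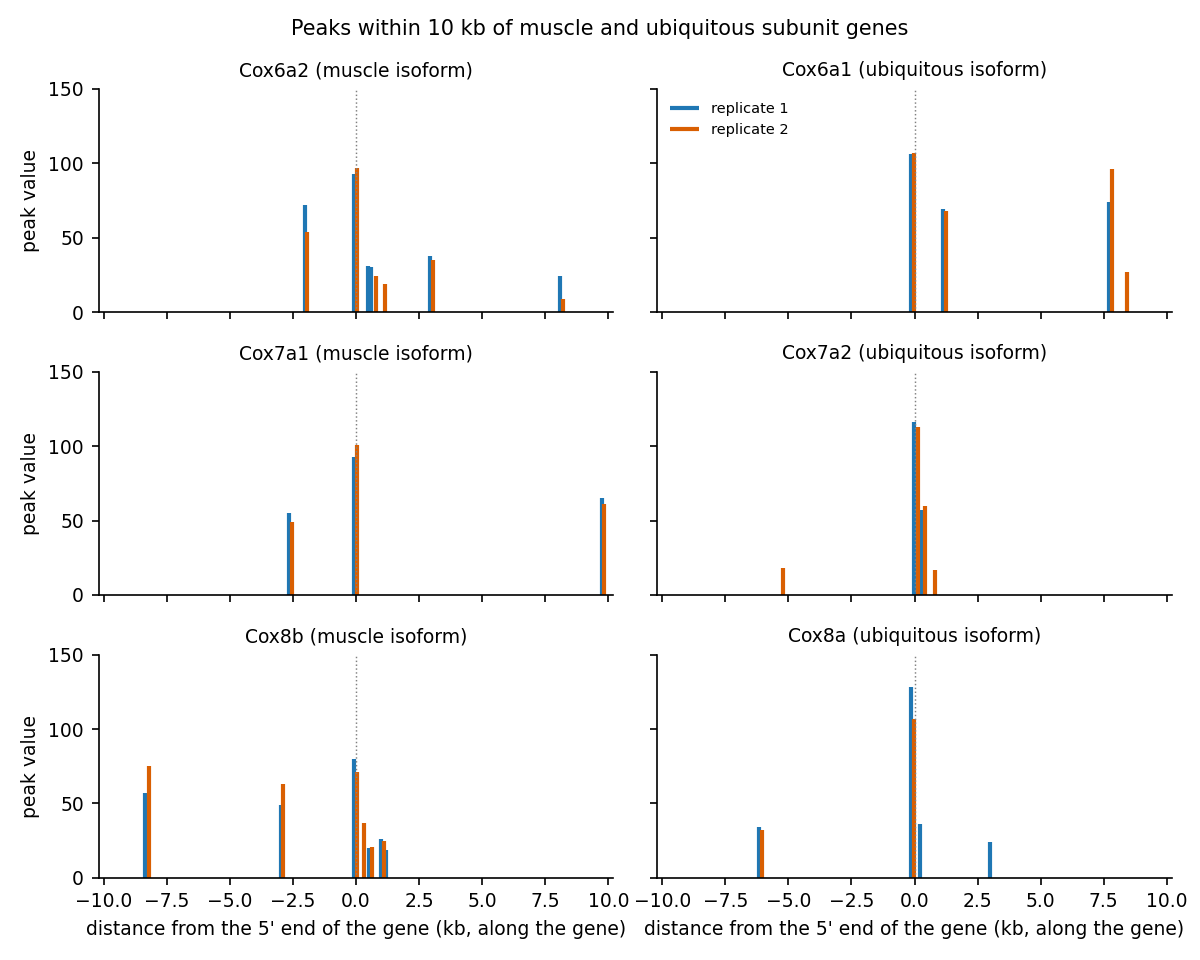
Peak values (y axis) by distance of the peak centre from the 5′ end (x axis, kb along the gene) within 10 kb of the 3 muscle isoforms (left) and their ubiquitous partners (right), with lines of replicate 1 and replicate 2 drawn slightly apart. The peak at the start is lower at each muscle isoform, and each has a further peak between 1 and 4 kb upstream in both libraries. That of Cox8b lies nearer to a TSS of BC024386.

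**Figure D3:**
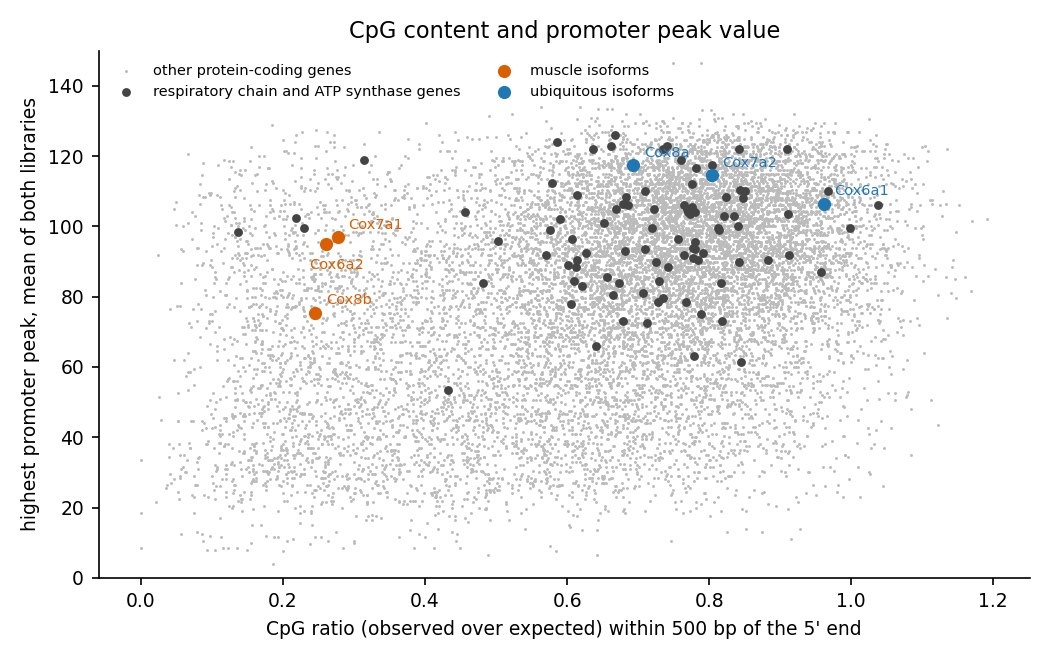
CpG ratio within 500 bp of the 5′ end (x axis) and highest promoter peak, mean of both libraries (y axis), of genes with a promoter peak in both. The muscle isoforms lie at ratios of 0.245 to 0.277 and the ubiquitous ones at 0.693 to 0.962, where most respiratory chain and ATP synthase genes are.

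The muscle isoforms belonged to a small group. Of the 105 genes, 8 had a CpG ratio under 0.3, and 6 of these had a promoter peak in both libraries. Besides the 3 muscle isoforms they were Atp5j2, a small ATP synthase subunit, with 110 and 95, Cox19, an assembly factor of complex IV, with 101 and 98, and Cox7a2l, which takes part in joining complexes III and IV into supercomplexes, with 94 and 103. The ratio was taken at the 5′ end of the gene, and not all of these peaks lay there. The Cox19 peak was 6188 and 6168 bases from the 5′ end in replicates 1 and 2, and at its nearest TSS the ratio was 0.481. The Atp5j2 peak was 492 and 472 bases from the 5′ end, with a ratio of 0.505 at its nearest TSS. At Cox7a2l the highest peak lay 280 bases upstream of the nearest TSS in both libraries. Across the 99 genes, Spearman's correlation between the CpG ratio and the mean peak value was 0.144, against 0.356 across all protein-coding genes with a promoter peak.

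The isoforms known from other tissues were closed or nearly so. Cox4i2, the lung form of subunit IV, and Cox7b2 and Cox8c, forms of the testis, had no promoter peak and no promoter hotspot in either library, while their partners Cox4i1 had 97 and 102, Cox7b 88 and 80, and Cox8a 128 and 107. Cox6b2, a testis form of subunit VIb, was the exception. It had a peak in both libraries, 51 and 56, the lowest of the 99 genes, and its partner Cox6b1 had 91 and 91. Ndufa4l2, known to rise in low oxygen, had no promoter peak in replicate 1 and one of 29 in replicate 2, with a hotspot there of −log10 q 1.65. Its partner Ndufa4, now counted with complex IV, had 89 and 91. The highest peak of Ndufa4 lay 293 bases upstream of its nearest TSS, next to the start of Phf14 on the other strand.

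A further 2 of the genes had a promoter peak in 1 library only. Ndufa13, a complex I subunit also known as Grim19, had 47 in replicate 1 and none in replicate 2, while a promoter hotspot at the ceiling was called in both. Higher peaks lay just outside its promoter window in both libraries. Upstream, at -752 bases from the 5′ end, the values were 113 and 97 in replicates 1 and 2. Downstream, at 868 and 848 bases, they were 95 and 90. The upstream peak lay nearer to a TSS of Yjefn3 and the downstream one to a TSS of Tssk6. Their assignment to Ndufa13 is therefore open, and its missing promoter peak in replicate 2 depends on the window. The second gene record of Atp5o, ENSMUSG00000116933.1, had 30 in replicate 1 and none in replicate 2. The main record, ENSMUSG00000022956.11, which encodes a subunit of the stator stalk, had 105 and 106.

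Many of these genes share a promoter with a neighbour. The start of a protein-coding gene on the other strand lay within 500 bp for 37 of the 105 genes (35.2%), against 11.2% of all protein-coding genes, 19.4% of the CpG-rich ones and 41.0% of mitochondrial ribosomal protein genes. Some of the partners have mitochondrial roles themselves. Sdhd shares its start region with Timm8b, which helps to import membrane proteins, Ndufb5 with Mrpl47 and Ndufs6 with Mrpl36, both of the mitochondrial ribosome. Atp5j is paired with Gabpa, the DNA-binding subunit of GABP, and 1 peak of 132 in replicate 1 and 112 in replicate 2 lies at both starts. Other partners belong to translation, as Rps28 beside Ndufa7 and Eef1b2 beside Ndufs1, or are known from other tissues, as Gdf9, an oocyte growth factor, beside Uqcrq. A peak in such a place cannot be assigned to either gene.

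Values were slightly higher with the shared arrangement, but the share of high ones was about equal. Genes of the chain with such a partner had medians of 100 and 99, and those without one 97 and 96.5, and the share with at least 100 in both libraries was 35.1% (13 of 37) and 35.3% (24 of 68). Over all protein-coding genes this share was 41.9% with a partner and 13.7% without.

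The letters of sites for known regulators were searched on both strands, from 250 bases before to 50 after the annotated 5′ end. The letters of NRF1 (GCGC, then A, then TGCGC) were present at 5.71% of the 105 genes, against 1.23% of all protein-coding genes and 2.4% of the CpG-rich ones. A relaxed form (GCGC, any base, TGCGC, which contains the first) was at 16.2%, against 6.04% and 11.8%. ETS letters (CCGGAAG), which GABP can bind, were at 21.9%, against 10.9% and 18.6%, and YY1 letters (AAG followed by ATGGCGG) at 4.76%, against 1.1% and 2.15%. SP/KLF letters (GGGCGG) ran the other way relative to promoter class, at 44.8%, against 43.4% of all protein-coding genes and 70.3% of the CpG-rich ones. Others were close to their share over all protein-coding genes. MEF2 letters (CTA and TAG with 4 bases between) were at 3.81%, against 3.6% of all and 2.72% of the CpG-rich genes, TATA box letters (TATAAA) at 12.4%, against 12.7% and 6.28%, and CCAAT letters at 39.0%, against 38.9% and 38%.

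The letters of the ERR site (AAGGTCA) stood out by their place. In the same window, from 250 bases before to 50 after the 5′ end, they were at 12 of the 105 genes (11.4%), against 4.19% of all protein-coding genes and 2.44% of the CpG-rich ones. Over 500 bases to either side they were at 44 genes (41.9%), against 14.6% and 10.5%, and the extended letters TCAAGGTCA, which contain them, at 10 genes (9.52%), against 1.88% and 1.28%. The share of these genes was above that of all protein-coding genes in each bin of 100 bases on both sides of the start, and the gap was widest inside the genes. From 200 to 299 bases after the 5′ end 13.3% of the genes had a match, against 1.36% of all protein-coding genes, and from 300 to 399 bases 9.52%, against 1.62%. Taking both bins together, a range chosen after these positions were seen, 23 of the 105 genes (21.9%) had a match, against 2.93% of all protein-coding genes, 2% of the CpG-rich ones and 7.69% of mitochondrial ribosomal protein genes.

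**Figure D4:**
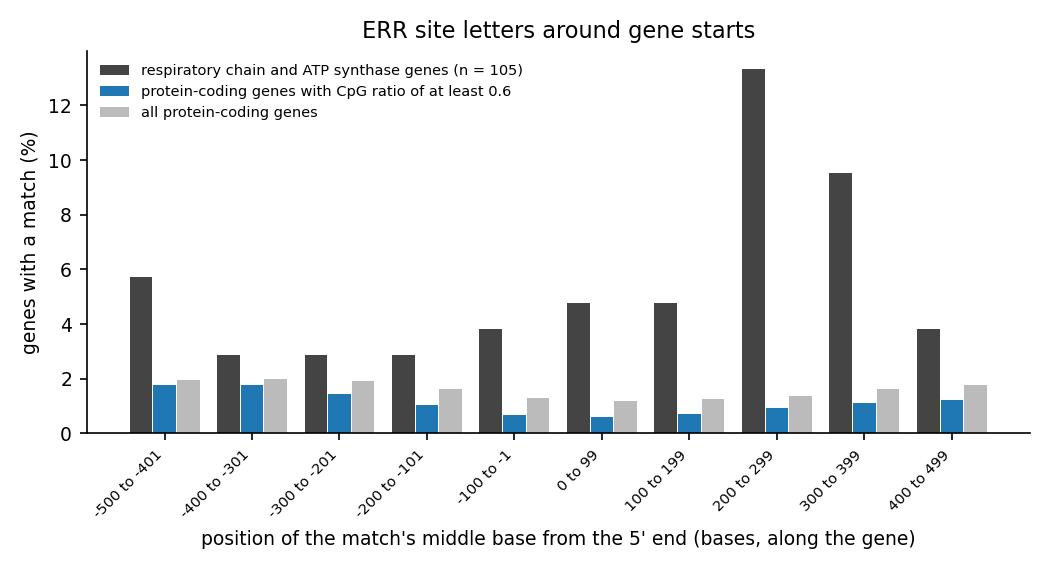
Share of genes (y axis, percent) with the ERR site letters by position of the match along the gene (x axis, bins of 100 bases from the 5′ end), for the 105 respiratory chain and ATP synthase genes, for CpG-rich genes and for all protein-coding genes. The bins 200 to 299 and 300 to 399 bases after the start hold 14 and 10 of the 105 genes.

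These 23 genes came from every complex and held 24 matches, of which 12 lay in an intron, 11 in an exon outside the coding sequence and 1, of Cox6a2, in coding sequence. They were on the gene's strand in 9 cases and on the other in 15. Only 5 of the 24 (20.8%) were inside a called peak in both libraries, against 13.4% of such matches at CpG-rich genes with a promoter peak in both, and 14 (58.3%) were inside a hotspot in both, against 59.9%. Most matches thus lay outside the called peaks of 150 bp, and over 50% of them inside the wider hotspots. Those printed here, with 11 bases before and 12 after the capitals, are 4 of the 5 inside peaks of both libraries (Sdha, Ndufaf5, Cox7a2, Uqcrq) and a further 3 with the extended letters (Atp5b, Atp5o, Ndufv2), which Ndufaf5 also has, each written on the strand that reads AAGGTCA.
Sdha: gctttccggcgAAGGTCAcgaccccgaggt
Ndufaf5: tgaagcttctcAAGGTCAcacagtcgggtg
Cox7a2: cgagtggacggAAGGTCAgggaaaaggacg
Uqcrq: atgactggcctAAGGTCActtgggtgactc
Atp5b: ggcccaagctcAAGGTCAcggggagaagaa
Atp5o: tcctggatgtcAAGGTCAagacagagaaat
Ndufv2: ctaacttagtcAAGGTCAggaaggcgattg
The match of Sdha is at chr13:74350031-74350037, 246 bases into the gene, under a peak of 58 and 65 apart from the main one of 105 and 86. That of Cox7a2 is at chr9:79759502-79759508, 373 bases into the gene in an intron, under a second peak of 57 and 60. That of Ndufaf5, at chr2:140171003-140171009, lay under a peak of 25 and 34, and that of Uqcrq, at chr11:53430429-53430435, under one of 35 and 34. The match of Atp5b (chr10:128083496-128083502) was in no peak of either library. Those of Atp5o (chr16:91931332-91931338) and Ndufv2 (chr17:66101180-66101186) were under a peak in replicate 1 only, of 48 and 45. The highest promoter peaks of Atp5b, Atp5o and Ndufv2 were 121 and 114, 105 and 106, and 110 and 97.

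By role, the ERR site letters within 500 bases of the start were at 6 of 9 genes of complex III, 9 of 17 of ATP synthase, 2 of 4 of complex II, 13 of 36 subunits of complex I and 8 of 19 of complex IV. Assembly factors of complex I had them at 1 of 8 genes and those of complex IV at 4 of 9. The share was 14.6% over all protein-coding genes and 10.5% over the CpG-rich ones. The relaxed NRF1 letters, at 22.9% of the genes in this window against 8.9% of all protein-coding genes and 17.2% of the CpG-rich ones, had another spread, at 6 of 17 genes of ATP synthase and 10 of 36 of complex I, but at 1 of 19 subunit genes of complex IV (Cox6a1) and 1 of 9 of complex III (Uqcrc1). YY1 letters were at 11 genes in this window (10.5%), against 2.35% and 4.62%, 6 of the 11 being complex I subunits, and 9 of their 12 matches lay after the 5′ end.

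Peaks away from promoters were about as many near these genes as near others. The mean number of distal peaks within 50 kb of a TSS of the gene was 6.92 ± 0.855 per gene, against 7.08 ± 0.743 over all protein-coding genes and 8.73 ± 0.938 over the CpG-rich ones (SD, n = 2 libraries). Cox6a2 and Cox8b had fewer than their partners in both libraries. Cox7a1 had fewer than its partner in replicate 1 and 1 more in replicate 2. Cox6a2 had 5 and 7 in replicates 1 and 2, and Cox6a1 9 and 9. Cox7a1 had 10 and 9, and Cox7a2 12 and 8. Cox8b had 6 and 5, and Cox8a 15 and 14. The muscle minus ubiquitous difference averaged -4.17 ± 1.18 over the 3 pairs (SD, n = 2 libraries), and within 25 kb in place of 50 kb it turned to 0.833.

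By the mean of both libraries, the gene with the most distal peaks was Cox4i2, which had no promoter peak, with 27 and 17. Ndufb4, a complex I accessory subunit and the highest in replicate 2, followed with 17 and 23, then Sdhc with 18 and 20, Cox19 with 16 and 16, Ndufa4l2 with 17 and 15, the main record of Atp5o with 17 and 14, and Atp5d with 21 and 9. An open neighbourhood and an open promoter thus did not go together at Cox4i2 and Ndufa4l2. Distal peaks were assigned by distance alone, and each may belong to another gene nearby.

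**Figure D5:**
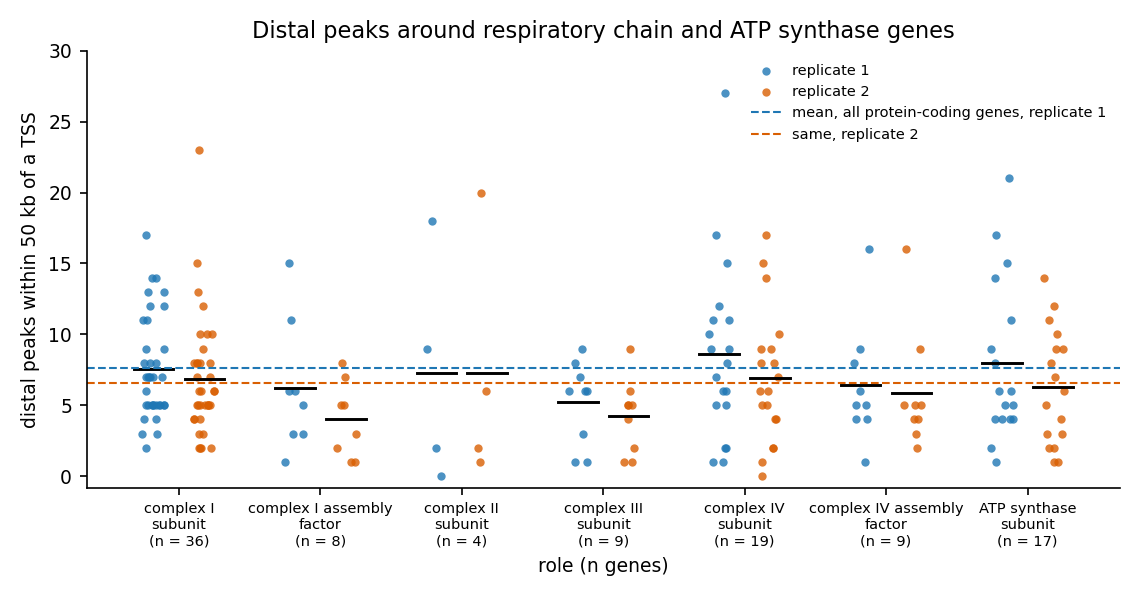
Number of distal peaks within 50 kb of a TSS (y axis) of each gene by role (x axis), 1 point per gene and library, with black bars at the means; roles with 1 gene are not drawn. Dashed lines mark the means over all protein-coding genes, and the highest point, 27 in replicate 1, is Cox4i2.

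The genes known to control and assemble the chain were open too. All 16 regulator genes listed had a promoter peak in both libraries, with medians of 101.5 and 94, against such a peak at 64.2% of all protein-coding genes and 93.4% of the CpG-rich ones. Esrra, the ERR family member of energy metabolism, had 126 and 111, Yy1 120 and 120, Nrf1 111 and 98, and Ppargc1a, the PGC-1α coactivator, 93 and 92 on a promoter with a CpG ratio of 0.227. Esrrb had 89 and 65, the largest difference between the libraries in this list. Tefm and Gabpb1 were the lowest in replicate 1, with 79 and 65, and 73 and 87. Of 34 assembly and maturation factors whose symbols fall outside the choice above, 33 had a peak in both libraries, with medians of 104 and 98. Both counts are near the share of CpG-rich genes. Bcs1l, which completes complex III, had 135 and 127, and Sdhaf1, an assembly factor of complex II with a CpG ratio of 0.0858, had none in either library.

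Markers of the labelled tissue were checked in the same way. All 10 cardiomyocyte markers had a promoter peak in both libraries, among them Myh6 with 110 and 100. Such a peak was present at 64.2% of all protein-coding genes, 93.4% of the CpG-rich ones and 21.2% of those with a ratio under 0.3. Of 10 skeletal muscle markers 3 had one, Mylpf, Myog and Actn3, and Mylpf shares its start region with Tbc1d10b. Myod1, Myf5, Myf6, Pax7, Myh1, Myh4 and Tnnt3 had none in either library. None of the 3 hepatocyte and 3 leukocyte markers had a promoter peak in either library. In both libraries 1 of 3 neuronal markers had one (Snap25, 41 and 42) and 1 of 4 male germ cell ones (Dazl, 93 and 85). Peaks in 1 library only were at the neuronal Tubb3 (35, replicate 1) and Neurod1 (16, replicate 2) and the germ cell Prm1 (17, replicate 1).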

How the data were processed

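Peak and hotspot lists of 2 DNase-seq libraries of newborn mouse heart, 1 group, were analysed. Both kinds were called separately for each replicate on filtered mm10 alignments, per the deposited text files. No source used here names the aligner, the caller or a threshold, and the caller's threshold decides which weak sites are listed. The deposited peak lists give a signal value per 150 bp peak with no stated normalization. In the hotspot lists deposited by the authors, −log10 q runs to 6 and otherwise stands at 100, and the score column deposited beside it was not used. Read totals are not given, so depth is unknown and precision rests on the spread between 2 libraries.

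TSSs came from GENCODE vM21 and bases from RefSeq GRCm38.p6, which has the primary sequence of mm10; coordinates are counted from 1. Promoter peaks had their centre within 500 bp of any TSS of the gene, and the highest was taken. Distal peaks lay over 1 kb from every TSS. Motifs were searched as letters on both strands in windows around the 5′ end of the gene record. Comparison sets were all protein-coding genes, those with a CpG ratio of at least 0.6, and ribosomal protein genes. No test was run. All genes of the chain could be named; values were given for the isoform pairs, the c-subunit genes, genes lacking a peak, the 8 highest and 8 lowest, the 6 largest differences between libraries, the 8 with most distal peaks, the 5 widest hotspots and each complex's extremes. The genes and lists were chosen with earlier results of these data known. Alternatives changed the windows, the TSSs used, the peak threshold and the libraries. Counting and scanning were tested on simulated data. Python 3.11.15, numpy 2.4.6, pandas 2.3.3, scipy 1.17.1 and matplotlib 3.10.9 were used.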

Additional observations from a re-analysis of the deposited data

How the results depend on the processing

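No paired analysis was possible because the series holds 1 group and no groups were compared. The median highest promoter value of the respiratory chain and ATP synthase genes, 98.5 as the mean of both libraries, was 97 with the 5′ end of the gene as the only TSS and 97.5 with TSSs of protein-coding transcripts. The mean number of distal peaks, 6.92, was 3.90 with the stronger 50% of peaks, 3.35 within 25 kb, 13.7 within 100 kb and 5.11 with peaks over 2500 bp from every TSS. The muscle minus ubiquitous difference in distal peaks, -4.17, was -0.833 with the stronger 50%, -9.17 within 100 kb and, with the sign turned, 0.833 within 25 kb. For single pairs the sign also turned for Cox6a2 and Cox6a1 (-3) at 3 within 25 kb, and for Cox7a1 and Cox7a2 (-0.5) at 3 with the stronger 50%, 4 within 25 kb, 2.5 with peaks over 2500 bp from every TSS and 1 without replicate 1 (-2 without replicate 2). The difference in distal peaks thus has no stable direction for these pairs or for the mean over the 3 pairs. For Cox8b and Cox8a (-9) it stayed negative in every setting, from -4.5 to -19.5. The cause was not tested. With motifs searched 500 bases to either side, ETS letters were at 35.2% (all protein-coding genes 19.3%, CpG-rich 31.2%), relaxed YY1 letters at 16.2% (3.69%, 7.08%) and ERR site letters at 41.9% (14.6%, 10.5%); within the highest peaks the last were at 3.96% in replicate 1 (1.21%, 0.910%) and 5% in replicate 2 (1.17%, 0.917%), where a window of 150 bases leaves fewer letters to match. Over the alternatives, the count of genes with a promoter peak, 99, ran from 95 to 101, and that with a promoter hotspot, 100, from 96 to 101. The muscle minus ubiquitous promoter difference, -23.7, was the same with every other window, TSS choice and peak threshold. Each of these settings picked the same highest peaks, which lay within 100 bp of the 5′ end with values of at least 71. The equal results are thus no check of stability. The difference was -28 without replicate 2 and -19.3 without replicate 1. Leaving out 1 of 2 libraries cannot move their mean by more than 1 SD, so this is no check of its stability.

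Depth is unknown, and the peak value reached at most 148 on peaks of 150 bp, which limits what the highest peaks can show. The 2 libraries carry 1 donor label and say little of variation between animals. Motif matches rest on the annotated 5′ end, and the range of 200 to 399 bases for the ERR site letters was chosen after seeing the data.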

Other observations

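Ribosomal protein genes are another set used in every cell. A promoter peak was present in both libraries at 90.1% of the 101 cytosolic ribosomal protein genes, with median values of 101 and 99, and at all 78 mitochondrial ones, with medians of 95 and 89.5. A value of at least 100 in both libraries was reached by 37.6% of the cytosolic and 26.9% of the mitochondrial ribosomal protein genes, with the 35.2% of the respiratory chain and ATP synthase genes between them. Distal peaks within 50 kb averaged 7.13 and 6.83 per gene. The ERR site letters from 200 to 399 bases after the 5′ end were at 2.97% of the cytosolic ribosomal protein genes and 7.69% of the mitochondrial ones, against 21.9% of the respiratory chain and ATP synthase genes. These shares are descriptions, and no test of their difference was run.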
